A study of Homo sapiens with 12 samples.

Results

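Acute-phase proteins are plasma proteins whose production changes during inflammation, and 8 secreted ones are described here together with a transcription factor and a feedback inhibitor of the pathway that controls many of them. The 10 genes were SERPINA3, SERPINA1, CLU, C3, CFB, LCN2, SAA1, CP, STAT3 and SOCS3, matched by gene name among the 58721 genes of the expression tables. The set was chosen by the measured dox response of SERPINA3, which moved in opposite directions in the 2 cell lines, so the values of SERPINA3 in these contrasts are a description and carry no test. CLU, named with it when the set was drawn up, is treated in the same way, and the other 8 genes were tested. The cells were Pa-Tu-8902 and MIA PaCa-2, human pancreatic ductal adenocarcinoma lines grown in culture medium with serum. All of them, controls included, stably carried iDox-shGOT1, a lentiviral construct from which doxycycline (dox) switches on a hairpin RNA that targets GOT1. Each line had 3 untreated libraries and 3 libraries from cells given dox for 5 days at a concentration labeled 1 µM/mL, a unit that differs from the µg/mL of the study's methods. No dox-treated cells lacked this construct, so an effect of dox itself and one of GOT1 loss cannot be told apart, and the hairpin used is not named in the sources used here. The labels do not say that replicates were separate cultures, so p-values measure only the spread between these libraries.

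The acute-phase response is best known from the liver, where interleukin-6 and its relatives signal through gp130 and JAK kinases to phosphorylate STAT3, which then enters the nucleus and turns on genes such as SERPINA3 and SOCS3. SOCS3 protein in turn blocks the receptor, while interleukin-1 acts on C3, CFB, LCN2 and SAA1 through NF-kB and C/EBP factors. Epithelial and tumor cells also make many of these proteins. STAT3 is regulated mainly by phosphorylation, which RNA-seq does not measure.

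The promoter of SERPINA3 is shown because this gene defines the set. SERPINA3 (ENSG00000196136) maps to chromosome 14, 94612384 to 94624055 of GRCh38, on the plus strand. The 243 bases before its annotated start, from RefSeq on GRCh38.p14, plus strand, are given 5′ to 3′ with each match to TTNNNNNAA, a loose core for STAT binding, in capitals.
SERPINA3 promoter, chr14:94612141-94612383: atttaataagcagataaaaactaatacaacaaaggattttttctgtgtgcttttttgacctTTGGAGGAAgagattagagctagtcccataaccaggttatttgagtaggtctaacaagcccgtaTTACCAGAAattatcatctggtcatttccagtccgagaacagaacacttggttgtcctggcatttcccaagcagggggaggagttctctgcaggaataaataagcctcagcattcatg
The matches, TTGGAGGAA and TTACCAGAA, begin 182 and 118 bases before the start. This core reads the same on both strands and is common, with a match in 49.0% of 35116 human promoters over the 250 bases before the start, and it was searched for only after stricter motifs had given no match. Promoters were found for 6 of the 10 genes, as 8 windows, since a gene can have more than 1. The core was present in 5 of these 8 windows, 1 each for CFB, SERPINA1, SERPINA3, SOCS3 and STAT3. The shares of all promoters given here count windows, not genes. Among stricter motifs, searched on both strands, the STAT motif TTCNNNGAA was found for CFB (6.57% of all promoters), the interleukin-6 element CTGGGAA for SOCS3 (9.15%) and the C/EBP motif TTGCNNAA for LCN2 (9.05%), while the NF-kB motif GGGNNTTTC was found for none of the 6 (4.16%). A strict STAT match is also a match to the loose core. Each match is a description of letters in this window.

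The libraries held 26226537 to 43406137 counts, so that a gene listed at 0 may still have had 3 counts, 0.0691 to 0.114 on the CPM scale (counts scaled to library size), for counting error only. GOT1 mRNA checked the dox labels. It fell from 78.26 to 83.38 TPM (transcript abundance scaled for length and depth) to 3.29 to 4.51 TPM in the Pa-Tu-8902 libraries. In those of MIA PaCa-2 it fell from 38.9 to 44.08 TPM to 1.68 to 1.95 TPM. A fall in both lines does not check the line names. Epithelial and ductal markers summed to 9218 to 10310 TPM in untreated Pa-Tu-8902, with 6 of 6 above 1 TPM, and to 2716 to 2983 TPM in untreated MIA PaCa-2, with 3 of 6. The mesenchymal markers VIM and CDH2 together summed to 5.29 to 11.21 TPM in untreated Pa-Tu-8902 and to 3531 to 4154 TPM in untreated MIA PaCa-2. By group mean, 1 of 2 was above 1 TPM in each, and VIM made up most of each sum. CDH2 went the other way, at 0.75 to 1.16 TPM in untreated Pa-Tu-8902 and at most 0.01 TPM in untreated MIA PaCa-2. Hepatocyte markers (ALB, APOA1, APOB, TTR and FGB), of the cell type best known for these proteins, summed to at most 0.87 TPM in any library, with 3 of 5 at 0 in all libraries of each group. Fibroblast markers (6 genes, 1 above 1 TPM) summed to 3.82 to 6.38 TPM without and 18.04 to 21.7 TPM with dox in Pa-Tu-8902, and to 192.2 to 248.4 and 340.4 to 398.3 TPM in MIA PaCa-2, and leukocyte markers to 3.55 to 13.63 TPM over all libraries. The part of these marker levels in the results was not tested. The line names are those of the deposited titles. In a table published with the study, library columns that carry the name of Pa-Tu-8902 hold the counts deposited under MIA PaCa-2 titles, while the group means beside them follow the libraries deposited as Pa-Tu-8902, and every value given for a line rests on the deposited titles. On the second principal component within a line, untreated replicate 3 of Pa-Tu-8902 stood apart (-25.0 against 14.7 and 11.4 for the other untreated libraries), as did untreated replicate 2 of MIA PaCa-2 (-28.5 against 21.3 and 8.59), and results are given without them where they moved.

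**Figure D1:**
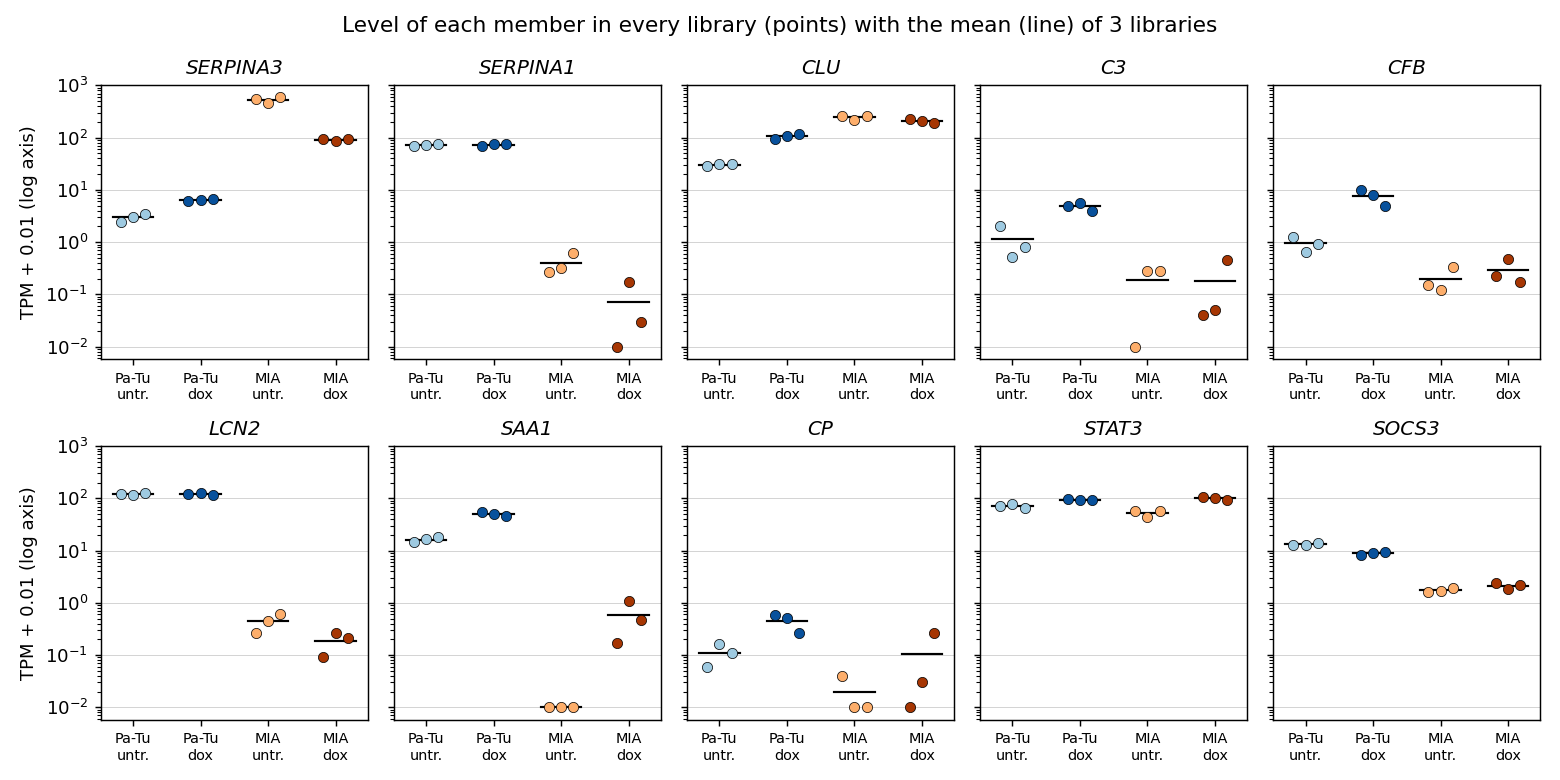
The level of each of the 10 genes in TPM, with 0.01 added so that values of 0 can be drawn, on a log axis; points are libraries and lines are means of 3. SERPINA3 lies between 465.94 and 590.25 TPM in untreated MIA PaCa-2 and between 2.39 and 3.52 TPM in untreated Pa-Tu-8902, while SERPINA1, LCN2 and SAA1 lie far higher in Pa-Tu-8902.

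SERPINA3 encodes alpha-1-antichymotrypsin, a secreted inhibitor of chymotrypsin-like proteases such as cathepsin G. Its level in untreated Pa-Tu-8902 was 2.39, 2.98 and 3.52 TPM in replicates 1 to 3, and with dox it was 6.11, 6.45 and 6.65 TPM. In untreated MIA PaCa-2 it was 552.89, 465.94 and 590.25 TPM, and with dox 94.07, 84.72 and 93.9 TPM. The groups did not overlap in either line, and the dox-treated libraries lay above the untreated ones in Pa-Tu-8902 and below them in MIA PaCa-2. Mean TPM was 2.16 times as high with dox in Pa-Tu-8902 and 5.9 times as high without dox in MIA PaCa-2. On the log2 scale of normalized counts the difference with dox was 1.07 (standard error, SE, 0.152) in the former and -2.61 (SE 0.0717) in the latter, and without the libraries that stood apart it was 1.23 and -2.64. The gap between the lines, 181-fold in mean TPM without dox, was 14.2-fold with dox. The difference in Pa-Tu-8902 rested on 65 to 107 counts per untreated library and 199 to 279 per dox-treated library, against 16308 to 18444 and 2274 to 3435 in MIA PaCa-2. Untreated replicate 3 of Pa-Tu-8902, the library with 107 SERPINA3 counts, also held 41 counts of COL1A2. That gene had 0 counts in the other untreated libraries of this line and 23300 to 28437 in untreated MIA PaCa-2. VIM had 378 counts in replicate 3, against 133 and 194 in the others. Whether reads from MIA PaCa-2 were part of the SERPINA3 counts of replicate 3 was not tested. A level in these bulk libraries cannot tell fewer cells that make a transcript from less RNA per cell.

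Nearly all SERPINA3 TPM was assigned to protein-coding transcripts, 93.0% to 100% over the 12 libraries. SERPINA3-201 held 67.5% to 68.1% in untreated and 69.1% to 71.2% in dox-treated MIA PaCa-2, and SERPINA3-202 held 28.5% to 30.1% and 25.1% to 26.1%. Means of both transcripts were lower with dox, at 64.0 against 363 TPM for SERPINA3-201 and 23.2 against 158 TPM for SERPINA3-202. The split was not stable at the low level of Pa-Tu-8902, where SERPINA3-201 ranged from 27.4% to 92.9%.

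SERPINA1, which encodes alpha-1-antitrypsin, the main plasma inhibitor of neutrophil elastase, is a neighbor of SERPINA3 on the minus strand of chromosome 14 (94376747 to 94390693). Its level in Pa-Tu-8902 was 69.26, 71.5 and 74.26 TPM without dox and 69.43, 76.06 and 76.01 TPM with dox. These groups overlapped, and the log2 fold change was -0.019 (SE 0.0685, adjusted p = 0.841 edgeR quasi-likelihood, Benjamini-Hochberg over all genes tested, as for every adjusted p here), with an approximate 95% interval of -0.15 to 0.12. MIA PaCa-2 held 9, 10 and 14 SERPINA1 counts without dox and 0, 6 and 2 with dox, too few for the test in that line (10 counts in 3 libraries). In the fit of all 12 libraries, which it entered through Pa-Tu-8902, its difference in response had no call (1.92 on the log2 scale, SE 0.585, adjusted p = 0.0215). On so few counts this value moved between 1.41 and 3.32 when 1 library was left out, the latter without dox-treated replicate 2 of MIA PaCa-2.

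A cluster of human serpin genes of clade A lies on chromosome 14, and 10 genes were listed in it, between 94280460 and 94624055. Beside SERPINA3 and SERPINA1, only SERPINA5, which encodes the protein C inhibitor, exceeded 1 TPM in any library. It lies on the plus strand and ends 19266 bases before the start of SERPINA3. SERPINA5 stood at 4.86, 3.34 and 4.09 TPM in untreated and 1.16, 0.77 and 0.95 TPM in dox-treated MIA PaCa-2, and at no more than 0.16 TPM in Pa-Tu-8902. It fell in MIA PaCa-2 by 2.26 on the log2 scale (SE 0.170, adjusted p = 2.04e-06). SERPINA4 overlaps SERPINA5 on the same strand and held at most 0.06 TPM, and the other 6 genes of the cluster held at most 0.28 TPM. Without dox the most abundant gene of the cluster was SERPINA1 in Pa-Tu-8902, where SERPINA3 stood at 2.39 to 3.52 TPM, and SERPINA3 in MIA PaCa-2, where SERPINA1 stood at 0.26 to 0.62 TPM.

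**Figure D2:**
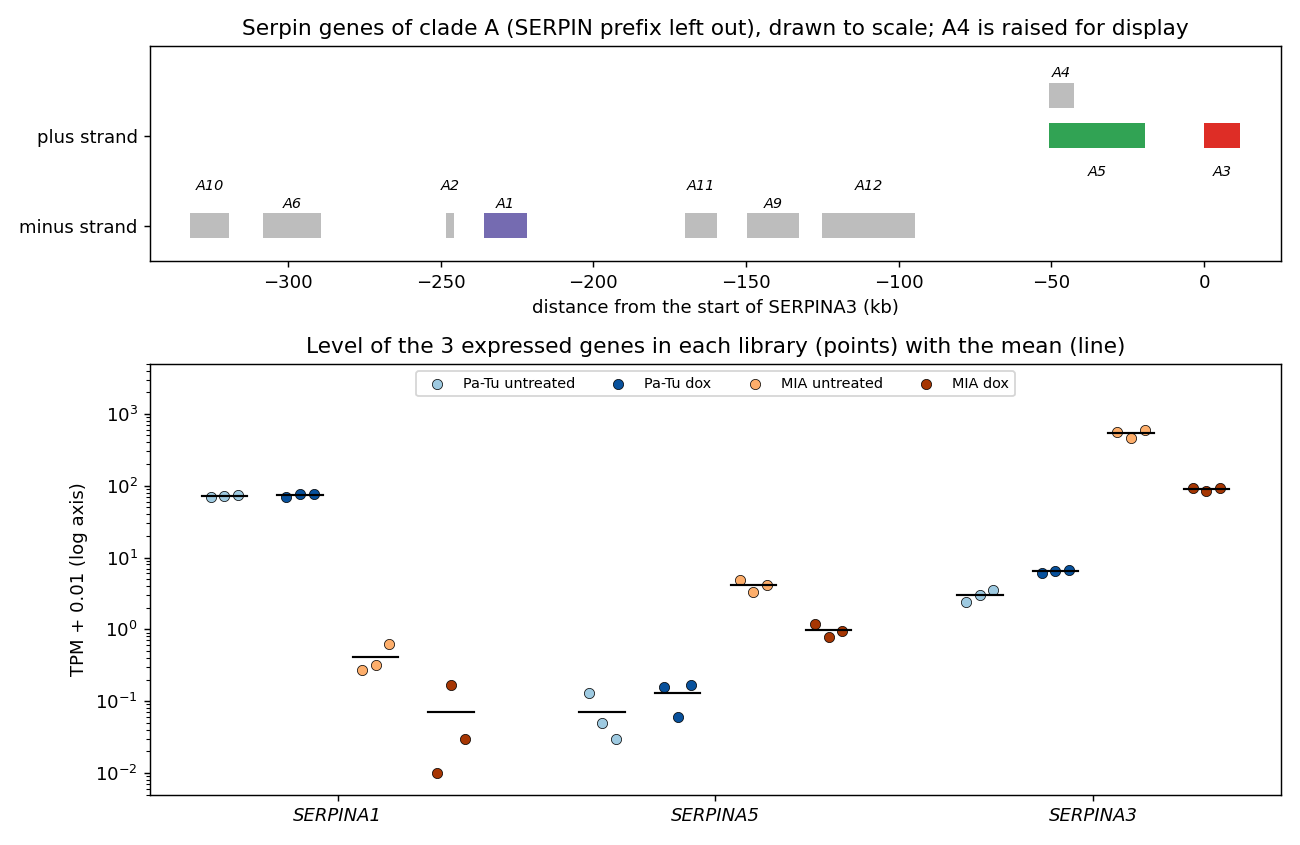
Top, the 10 serpin genes as bars to scale by distance in kb from the start of SERPINA3, on their strands; bottom, the TPM (plus 0.01, log axis) of SERPINA1, SERPINA5 and SERPINA3 in each library, with means of 3 as lines. SERPINA5 and SERPINA3 are lower with dox in MIA PaCa-2, and SERPINA1 lies between 69.26 and 76.06 TPM in all libraries of Pa-Tu-8902.

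CLU (chromosome 8, minus strand, 27596917 to 27614700) encodes clusterin, a secreted chaperone that binds misfolded proteins and restrains the terminal complement complex. Its level in Pa-Tu-8902 was 28.09, 31.58 and 31.04 TPM without dox and 93.65, 107.29 and 118.33 TPM with dox. In MIA PaCa-2 it was 260.73, 216.21 and 265.05 TPM without dox and 223.26, 207.73 and 189.28 TPM with dox. In TPM the groups were apart in Pa-Tu-8902 and overlapped in MIA PaCa-2. In normalized counts they were apart in both lines, at 3812 to 4125 without and 3263 to 3417 with dox in MIA PaCa-2. On the log2 scale the fold change was 1.98 (SE 0.0785) in Pa-Tu-8902 and -0.24 (SE 0.0599) in MIA PaCa-2. Without the libraries that stood apart it was 2.08 and -0.21. With effective gene lengths as offsets the value in Pa-Tu-8902 was 1.74. The gap between the lines, 8.18-fold in mean TPM without dox, was 1.94-fold with dox. CLU-204 was the leading transcript in each group, with 31.2% to 44.9% of the TPM, followed by CLU-216 with 19.0% to 25.2%.

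C3 and CFB encode the central component of complement and factor B, the protease that joins it in the alternative pathway. C3 (minus strand of chromosome 19, 6677704 to 6730562) had 56, 67 and 52 counts in untreated and 318, 401 and 251 counts in dox-treated Pa-Tu-8902. Its level was 2.04, 0.5 and 0.8 TPM without dox and 4.99, 5.66 and 4.02 TPM with dox, without overlap on either scale. C3 rose by a log2 fold change of 2.22 (SE 0.128, adjusted p = 2.96e-07). CFB (plus strand of chromosome 6, 31945650 to 31952086) stood at 1.22, 0.65 and 0.93 TPM without dox and at 9.75, 8.01 and 4.89 TPM with dox in Pa-Tu-8902. Again the groups were apart, and CFB rose by 3.29 (SE 0.263, adjusted p = 2.96e-06), on 13 to 26 counts per untreated and 137 to 266 per dox-treated library. A large part of this signal was assigned to transcripts that do not encode the protein: the coding share of the TPM with dox was 41.4% to 51.9% for C3 and 27.6% to 44.1% for CFB, and without dox it was 23.4% to 100% and 18.1% to 50.4%. Both genes were scarce in MIA PaCa-2, with 0 to 6 counts of C3 and 1 to 7 counts of CFB per library, and were not tested there. In the fit of all 12 libraries, which both entered through Pa-Tu-8902, the difference in response had no call for C3 (1.09, SE 0.811, adjusted p = 0.357) or for CFB (2.32, SE 0.727, adjusted p = 0.0247).

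LCN2 (chromosome 9, plus strand, 128149071 to 128153453) encodes lipocalin-2, which binds bacterial siderophores and so withholds iron. It was the most abundant of the 10 genes in untreated Pa-Tu-8902, at 119.12, 116.6 and 125.93 TPM, and with dox it stood at 121.65, 125.72 and 114.75 TPM. The groups overlapped. The log2 fold change was -0.087 (SE 0.0742, adjusted p = 0.358, approximate 95% interval -0.23 to 0.059). MIA PaCa-2 held 4, 6 and 8 LCN2 counts without dox and 1, 3 and 3 with dox, and the gene was not tested there.

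SAA1 (chromosome 11, plus strand, 18266260 to 18269977) encodes serum amyloid A, an apolipoprotein that can rise steeply in the acute phase. Its level in Pa-Tu-8902 was 14.37, 16.36 and 18.17 TPM without dox and 55.97, 50.11 and 45.82 TPM with dox. The groups were apart, and SAA1 rose by 1.58 on the log2 scale (SE 0.123, adjusted p = 2.54e-06). The near-identical SAA2 can share its reads, so the split between them is uncertain. SAA2 went from 3.31 to 3.67 TPM to 14.8 to 17.97 TPM, and the sum of SAA1 and SAA2 was 19.84 ± 2.07 TPM without dox and 66.81 ± 6.39 TPM with dox (SD, n = 3 each). In MIA PaCa-2 SAA1 had no counts in the 3 untreated libraries and 1, 7 and 4 counts with dox. It was not tested there, and in the fit of all 12 libraries, which it entered through Pa-Tu-8902, its difference in response had no call (-3.56, SE 1.37, adjusted p = 0.0687).

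CP (chromosome 3, minus strand, 149162410 to 149221829) encodes ceruloplasmin, a copper-carrying ferroxidase. It was close to the limit of detection, with 1, 1 and 3 counts in untreated and 34, 22 and 13 counts in dox-treated Pa-Tu-8902, or 0.05 to 0.15 and 0.25 to 0.57 TPM. Pooled over the libraries, 69 counts against 5 gave a CPM ratio of 12.2 (exact 95% interval 5.0 to 38.9, counting error only). The test called CP higher (adjusted p = 0.000726), but it entered the test only through its dox-treated libraries, lost the call with effective lengths as offsets (adjusted p = 0.0180), and fell below the filter when any dox-treated library was left out. Protein-coding transcripts held 8.0% to 40.4% of its TPM with dox. MIA PaCa-2 had 0 to 3 counts in each library.

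STAT3 (chromosome 17, minus strand, 42313324 to 42388540) encodes the transcription factor that interleukin-6 family cytokines activate. In MIA PaCa-2 its level was 57.09, 43.18 and 57.72 TPM without dox and 104.26, 102.54 and 93.02 TPM with dox. In Pa-Tu-8902 it was 73.14, 76.95 and 66.14 TPM without dox and 97.24, 92.22 and 94.36 TPM with dox. The dox-treated libraries lay above the untreated ones in both lines. STAT3 rose in MIA PaCa-2 by 0.83 (SE 0.0613, adjusted p = 1.77e-06), and by 0.79 without untreated replicate 2. In Pa-Tu-8902 the log2 fold change of 0.42 (SE 0.0449, adjusted p = 2.35e-05) was under the limit of 1.5-fold. The difference between the lines of -0.41 (SE 0.0780, adjusted p = 0.000729) was under that limit as well. STAT3-201 held 64.7% to 78.0% of the TPM in all 12 libraries.

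SOCS3 (chromosome 17, minus strand, 78356778 to 78360077) encodes the feedback inhibitor of gp130 and JAK signaling. Its level in Pa-Tu-8902 was 12.71, 13.06 and 14.08 TPM without dox and 8.38, 9.14 and 9.44 TPM with dox, without overlap. SOCS3 fell by 0.61 on the log2 scale (SE 0.0852, adjusted p = 0.000165), just past the fold limit, and was under it without untreated replicate 3 (-0.54) or without dox-treated replicate 1 (-0.52). In MIA PaCa-2 it stood at 1.59, 1.66 and 1.92 TPM without dox and at 2.38, 1.8 and 2.18 TPM with dox. These groups overlapped, with a log2 fold change of 0.25 (SE 0.157, adjusted p = 0.221, approximate 95% interval -0.054 to 0.56). The responses of the lines differed by -0.86 (SE 0.171, adjusted p = 0.00106), which makes SOCS3 the member of the 8 tested whose difference in response was called.

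**Figure D3:**
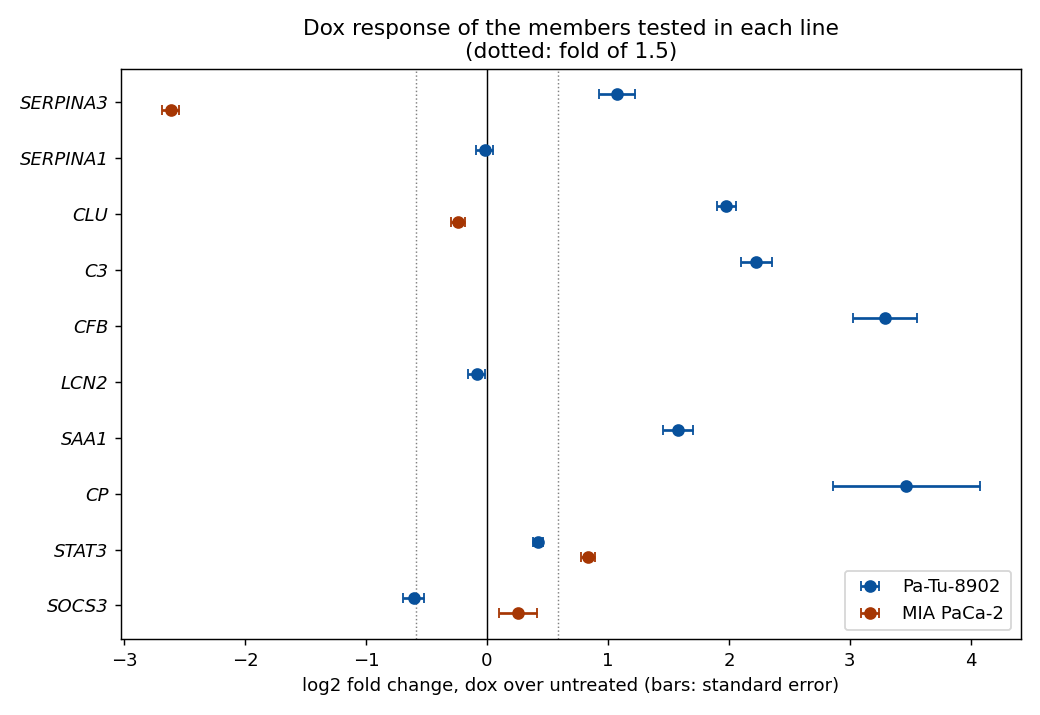
Log2 fold change of normalized counts, dox over untreated, for the genes tested in each line, with standard errors as bars and the fold limit of 1.5 dotted; the SERPINA3 values chose the set. SERPINA3 is at 1.07 in Pa-Tu-8902 against -2.61 in MIA PaCa-2, STAT3 is above 0 in both lines, and 6 genes have no point for MIA PaCa-2 because their counts were too few.

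Counted over the 8 tested members, 4 were called higher with dox in Pa-Tu-8902 (C3, CFB, SAA1 and CP) and 1 lower (SOCS3). CP passed the count filter only through its dox-treated libraries, where it was high. Of all 14949 tested genes, 9.22% were called higher and 7.12% lower. In MIA PaCa-2 only STAT3 and SOCS3 could be tested, and STAT3 was called higher, where 4.36% of 14589 genes were called higher and 7.64% lower. The difference in response between the lines was called for SOCS3 alone, on the side where 3.86% of 16544 genes were called, and for none of the 8 on the other side, where 6.56% of genes were. Since the genes were picked with these contrasts in view, nothing is read from their number.

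Levels before dox were compared between the lines in the fit of all 12 libraries, as Pa-Tu-8902 over MIA PaCa-2, in which line and any difference in handling cannot be told apart. The order of the 10 genes by mean TPM differed. In untreated Pa-Tu-8902 it was LCN2 (120.5 TPM), STAT3 (72.1), SERPINA1 (71.7), CLU (30.2), SAA1 (16.3), SOCS3 (13.3), SERPINA3 (2.96), C3 (1.11), CFB (0.933) and CP (0.10), where the ranges of STAT3 and SERPINA1 overlapped, as did those of C3 and CFB. In untreated MIA PaCa-2 it was SERPINA3 (536 TPM), CLU (247), STAT3 (52.7) and SOCS3 (1.72), and the other 6 had means of at most 0.433 TPM with ranges that overlapped from each to the next. With dox, CLU (106 TPM) overlapped with LCN2 and STAT3 at the top in Pa-Tu-8902. Dox-treated MIA PaCa-2 had CLU (207 TPM) first, above STAT3 (99.9) and SERPINA3 (90.9), whose ranges overlapped.

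LCN2 was higher in untreated Pa-Tu-8902 by 8.03 on the log2 scale (SE 0.161, adjusted p = 7.19e-18), SERPINA1 by 7.76 (SE 0.173, adjusted p = 2.83e-17), C3 by 4.82 (SE 0.398, adjusted p = 3.44e-09) and CFB by 2.47 (SE 0.475, adjusted p = 0.000126). SAA1, with no counts in untreated MIA PaCa-2, was at least 38.8-fold higher, from the lowest CPM of untreated Pa-Tu-8902 (3.86) against a limit of 3 counts per library (0.0994 CPM). SOCS3 was higher by 2.89 (SE 0.120, adjusted p = 1.85e-13), STAT3 differed by 0.36 (SE 0.0555, adjusted p = 1.28e-05), under the fold limit, and CP had no call (2.01, SE 1.31, adjusted p = 0.166). On the other side stood SERPINA3, at -7.56 (SE 0.111), and CLU, at -3.33 (SE 0.0766), both given without a test. Calls at baseline were common over the genome, with 29.4% of genes higher and 28.2% lower in Pa-Tu-8902. The calls of LCN2, SERPINA1, C3, CFB and SAA1 rest on libraries of MIA PaCa-2 that were at or near the limit of detection. These genes passed the count filter only through Pa-Tu-8902, the line where they were high, so their adjusted p-values at baseline are a description. With effective lengths as offsets C3 lost its call (2.60, adjusted p = 0.0211).

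Other genes of the response were followed in 6 lists of 165 distinct genes. Of these, 91 were tested in Pa-Tu-8902 (18 higher and 13 lower) and 83 in MIA PaCa-2 (15 higher and 8 lower). Over all tested genes, 9.22% were called higher and 7.12% lower in Pa-Tu-8902, and 4.36% higher and 7.64% lower in MIA PaCa-2. These shares stand beside the counts of every list below. The lists were chosen with earlier results of these data known, so nothing is read from their counts. Few of the 40 acute-phase and plasma protein genes had enough counts, 8 in Pa-Tu-8902 against 5 in MIA PaCa-2. In Pa-Tu-8902, 3 were higher and 2 lower (median log2 fold change 0.35, against 0.0014 over all genes). SERPINF2, which encodes alpha-2-antiplasmin, fell from 259 ± 26.4 to 160 ± 4.44 normalized counts (SD, n = 3 each), by 0.69 on the log2 scale. The 3 that rose were SAA2 (2.00), LRG1 (1.80) and S100A9 (3.64, from a mean of 4.69 normalized counts to 60.3, entering the test through the dox-treated libraries), named after their values were seen. In MIA PaCa-2 none of the 5 was called (median -0.32, against -0.0089 over all genes).

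Of 28 further complement genes, 13 were tested in each line. In Pa-Tu-8902, 4 were higher and 2 lower (median 0.32). C1S and C1R, the proteases of the first component, rose from 50.3 ± 9.15 to 374 ± 57.2 and from 73.1 ± 13.0 to 225 ± 16.2 normalized counts (SD, n = 3 each), by 2.90 and 1.62 on the log2 scale. CFP, which encodes properdin, rose by 1.37. CD55, a membrane protein that speeds the decay of the C3-cleaving enzymes, fell by 0.81, and CFD, factor D, fell by 0.87. CFP and the fall of CFD in this line were named after their values were seen. In MIA PaCa-2, 1 gene was higher (MASP2, 1.27, at means of 12.1 and 29.1 normalized counts, also named afterwards) and 1 lower (CFD, by 0.93), with a median of -0.050. MASP2 lost its call with DESeq2, with effective lengths as offsets, with a replicate block, in the fit of all 12 libraries and without any 1 library other than untreated replicate 2, whereas CFD kept its call in each of these.

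The IL-6 family and JAK-STAT list had 24 of 27 genes tested in each line. In Pa-Tu-8902, 3 were higher and 3 lower (median 0.075). The cytokine gene LIF fell from 2405 ± 38.7 to 1043 ± 80.9 normalized counts (SD, n = 3 each), by 1.21, while the receptor genes OSMR (0.78) and LIFR (0.63) and the STAT3 inhibitor gene PIAS3 (0.64) rose. JAK2 (-0.66) and SOCS2 (-0.64), named after their values were seen, were the other lower genes. In MIA PaCa-2, 4 were higher and 1 lower (median 0.12). The kinase gene JAK1 (0.63), the receptor gene CNTFR (1.03) and the cytokine gene CTF1 (0.69) rose, as did STAT5A (1.01, named afterwards).

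Of 20 genes listed as STAT3 targets, 20 were tested in Pa-Tu-8902, with 6 higher and 3 lower (median 0.13), and 18 in MIA PaCa-2, with 4 higher and 1 lower (median 0.26). In Pa-Tu-8902 BCL3 (1.18) and CEBPD (1.42) rose, and the survival gene MCL1 fell from 5411 ± 202 to 3185 ± 94.0 normalized counts (SD, n = 3 each), by 0.77. In MIA PaCa-2 CEBPD, the kinase gene PIM1 (1.09) and MYC (0.59) rose, and TIMP1, an inhibitor of metalloproteinases, fell by 0.61. CEBPD encodes C/EBP delta, a transcription factor of the acute phase. It rose from 523 ± 47.4 to 1397 ± 188 normalized counts in Pa-Tu-8902 and from 114 ± 4.17 to 323 ± 19.5 in MIA PaCa-2 (SD, n = 3 each).

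Acute-phase transcription factors with the IL-1 and NF-kB genes, 26 in all and 2 of them also in the preceding list, had 22 tested in Pa-Tu-8902 (3 higher and 1 lower, median -0.16) and 19 in MIA PaCa-2 (7 higher and 1 lower, median 0.26). Beside CEBPD, IL1B (0.99) and IL1R1 (0.60), which encode interleukin-1 beta and its receptor, rose in Pa-Tu-8902, and IL1RN, which encodes the receptor antagonist, fell by 1.33 from a mean of 36.4 normalized counts (named after its values were seen). IL1R1 was just past the fold limit, and lost its call without untreated replicate 1 (0.58), untreated replicate 3 (0.58) or dox-treated replicate 1 (0.56). In MIA PaCa-2 the NF-kB subunit genes NFKB2 and RELB rose from 1360 ± 65.7 to 3104 ± 122 and from 412 ± 50.7 to 996 ± 54.8 normalized counts (SD, n = 3 each), by 1.19 and 1.27, and the inhibitor gene NFKBIA rose by 0.95.

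The other serpins had 11 of 33 genes tested in Pa-Tu-8902 (2 higher and 4 lower, median -0.45) and 9 in MIA PaCa-2 (0 higher and 4 lower, median -0.47). In Pa-Tu-8902 SERPINB5, which encodes maspin, fell from 846 ± 64.3 to 207 ± 38.2 normalized counts (SD, n = 3 each), by 2.04, and SERPINB8 by 1.32, while SERPINH1, the collagen chaperone HSP47, rose by 1.17. In MIA PaCa-2 SERPINA5, SERPINF1 (by 1.63), SERPINB8 (by 0.82) and SERPINB6 (by 0.70) fell. SERPINF1 encodes pigment epithelium-derived factor, an inhibitor of angiogenesis. SERPINB8 was called lower in each line.

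**Figure D4:**
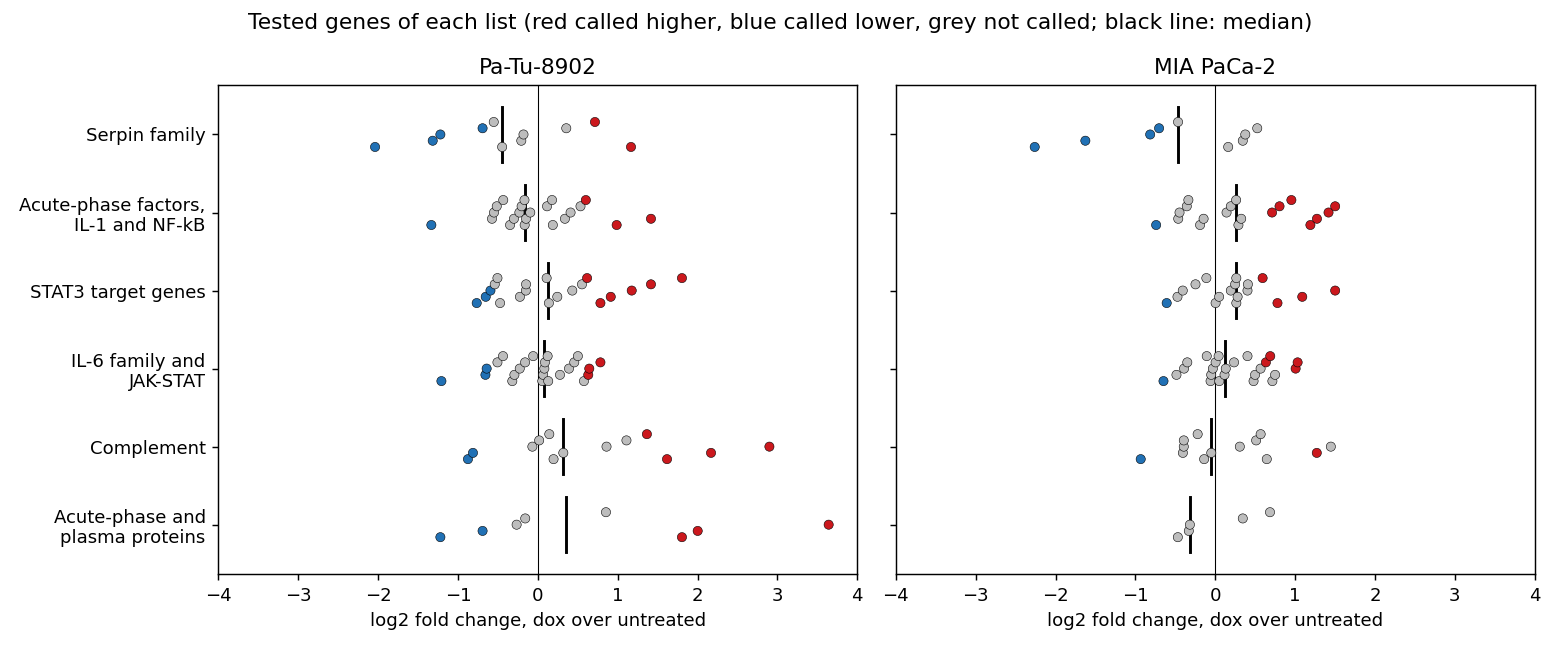
Log2 fold change, dox over untreated, of the tested genes of each list in Pa-Tu-8902 (left) and MIA PaCa-2 (right), with genes called higher in red, called lower in blue and not called in grey; black lines are medians. The medians range from -0.45 to 0.35 in Pa-Tu-8902 and from -0.47 to 0.26 in MIA PaCa-2, and genes on both sides of 0 were called in all lists of Pa-Tu-8902.

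Of the list genes that the naming rule selected and that were tested within each line, 14 had responses that differed between the lines by the interaction test, as did SOCS3. C1S and C1R had log2 fold changes of 2.90 and 1.62 in Pa-Tu-8902 against -0.14 and -0.39 in MIA PaCa-2, where neither was called. NFKB2 and RELB showed the reverse order, with 1.19 and 1.27 in MIA PaCa-2 against -0.43 and -0.094 in Pa-Tu-8902. CEBPD was not among these genes. SERPINA5 (2.92, SE 0.652, adjusted p = 0.00277) and SERPINB5 (-4.36, SE 0.884, adjusted p = 0.00127) passed the interaction test as well, but each was too scarce to test in 1 of the lines, with 1 to 7 counts of SERPINA5 per library in Pa-Tu-8902 and 0 to 5 of SERPINB5 in MIA PaCa-2. These 2 calls were lost when single libraries of the scarce line were left out, with adjusted p = 0.0106 and 0.0231 for SERPINA5 (untreated replicate 2, dox-treated replicate 3) and 0.0116 and 0.0105 for SERPINB5 (dox-treated replicates 1 and 3).

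**Figure D5:**
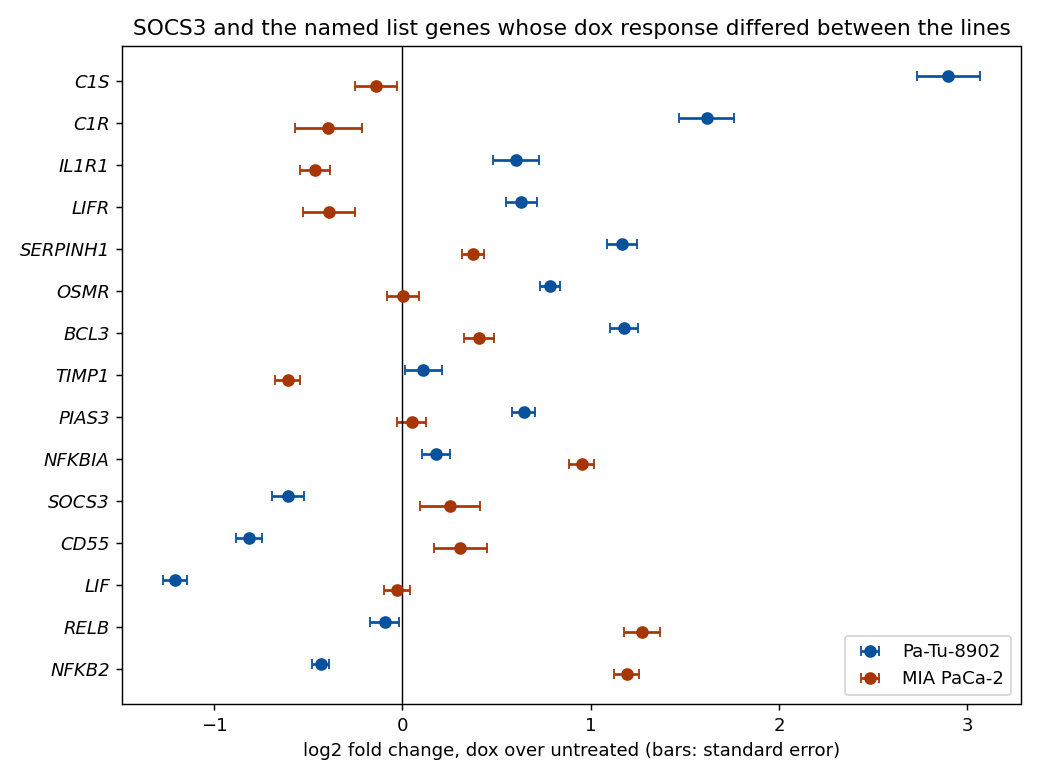
Log2 fold change, dox over untreated, with standard errors as bars, of SOCS3 and the 14 list genes named by the rule, tested in each line and different in response between the lines, ordered by that difference. Complement genes C1S and C1R lie at the top, with 2.90 and 1.62 in Pa-Tu-8902, and NFKB2 at the bottom, with 1.19 in MIA PaCa-2.

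The genes most like SERPINA3 over the 12 libraries were sought among 10010 genes, by Pearson correlation of log2 CPM after the mean of each line was subtracted. They were LPCAT1 (r = 0.990), FAM89B (0.985), ENC1 (0.983), LGALS3BP (0.983) and DDIT4 (0.982), each lower with dox in MIA PaCa-2 and higher in Pa-Tu-8902, which is what the measure selects. LPCAT1, a lysophosphatidylcholine acyltransferase, had a log2 fold change of 0.42 in Pa-Tu-8902 against -0.79 in MIA PaCa-2. For LGALS3BP, which encodes a secreted galectin-binding glycoprotein, it was 0.50 and -1.07. DDIT4, an inhibitor of mTORC1 signaling, had 0.27 and -0.56. These correlations are a description of 12 libraries that share line and treatment.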

How the data were processed

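RNA-seq of 12 libraries (3 untreated and 3 dox-treated of each line) was used, assigned by the deposited sample titles, with which library columns in a table published with the study conflict over the line. Per the submitters' processing notes and the methods, strand-specific poly(A) libraries were trimmed with Trimmomatic 0.39, aligned with STAR 2.5.2a and quantified with RSEM 1.3.1 on GRCh38. The authors deposited expected counts per gene, not normalized or filtered, of which 5.34% were not whole numbers and all were rounded here. The authors also deposited TPM per gene and per transcript, used for levels, and effective gene lengths, used as an alternative. FPKM values, per-library transcript files and transcript counts were not used here. Positions are from GENCODE release 44 on the same assembly.

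Genes that reached 10 counts in 3 or more of the libraries fitted were tested by edgeR version 4.0.16 (TMM, glmQLFit, glmQLFTest) under R 4.3.3, within each line and, for differences between lines, in 1 fit of all 12 libraries. Calls needed a Benjamini-Hochberg adjusted p below 0.01 over all genes tested and a fold change of at least 1.5. Normalized counts were divided by relative effective library size. Standard errors are the absolute log2 fold change over the square root of F, and intervals are 1.96 of these on either side. Components and correlations used log2 CPM with a prior count of 2. The pipeline was tested on simulated data for the dox response in each line and for their difference, but not for the baseline comparison.

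The members and gene lists were chosen with earlier results of these data known. Named were the members, GOT1, up to 4 called genes of smallest p per list and line whose mean was 100 normalized counts or more, the 5 genes most like SERPINA3, and transcripts with at least 10% of a member's TPM. The lists are Acute-phase and plasma proteins, Complement, IL-6 family and JAK-STAT signalling, STAT3 target genes, Acute-phase transcription factors and IL-1 and NF-kB signalling, and Serpin family. They were written from general knowledge and overlap in part. No set test was run. Some genes that the rule names are not reported here. Replicate libraries differed beyond sampling noise (chi-square over degrees of freedom 2.2 to 25.3). Alternatives were DESeq2 1.42.0, its size factors, other count filters, effective lengths as offsets, a replicate block, other thresholds, 1 fit of all libraries and each library left out in turn.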

Additional observations from a re-analysis of the deposited data

Results flagged for a closer look

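Responses to dox that differed between the lines by the interaction test, with the same thresholds as in the comparisons, were found for 15 genes, counting members and the list genes that the naming rule selected, where they were tested within each line. Each value is the log2 fold change in Pa-Tu-8902 minus that in MIA PaCa-2. Among the members SOCS3 was 1 such gene, at -0.86 (adjusted p = 0.00106, edgeR). Of these 15, C1S (3.04) and C1R (2.01) had the largest positive differences, with log2 fold changes of 2.90 and 1.62 in Pa-Tu-8902 against -0.14 and -0.39 in MIA PaCa-2, and CD55 differed by -1.11. Among receptor and cytokine genes the differences were -1.18 for LIF, 0.78 for OSMR, 1.02 for LIFR (0.63 against -0.39), 1.07 for IL1R1 (0.60 against -0.46) and 0.60 for PIAS3. The difference of PIAS3 was just past the fold limit and under it in 6 of 19 alternatives (lowest 0.55). SERPINA5 (2.92) and SERPINB5 (-4.36) are left out of the 15 because each was too scarce to test in 1 of the lines.

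The NF-kB genes NFKB2 (-1.62), RELB (-1.36) and NFKBIA (-0.77) had negative differences. Their log2 fold changes were 1.19, 1.27 and 0.95 in MIA PaCa-2 against -0.43, -0.094 and 0.18 in Pa-Tu-8902. The remaining genes had positive differences, of 0.77 for BCL3, 0.79 for SERPINH1 and 0.72 for TIMP1. CEBPD, called higher in each line, was not among them.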

How the results depend on the processing

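Of the 8 members given with a test, 5 had calls for dox in Pa-Tu-8902 against 1 for dox in MIA PaCa-2, 1 for the difference between the lines and 6 at baseline. With 1 library left out in turn these counts were 3 to 5, 1 to 1, 1 to 2 and 6 to 6. The 3 came without dox-treated replicate 1 of Pa-Tu-8902, where SOCS3 was under the fold limit and CP had too few libraries for the test, and the 2 without dox-treated replicate 2 of MIA PaCa-2, where SERPINA1 was called as well (3.32). The difference between the lines was called for 3 members with DESeq2, for 3 with no filter on low counts, for 2 with effective lengths as offsets and for 4 at an adjusted p below 0.05 with no limit on the fold. Beside SOCS3 and, in the last of these, STAT3, they were SERPINA1 and CFB. The differences of SERPINA1 and CFB rest on 0 to 14 and 1 to 7 counts per library in MIA PaCa-2. Over all genes, DESeq2 called 1159 of 16544 differences higher and 634 lower. With no filter 1288 of 29171 were higher and 671 lower, and with effective lengths 822 of 16544 and 504. For the setting without a fold limit no count over all genes is given here. The fit of all 12 libraries called 2 members in MIA PaCa-2, where it called 658 of 16544 genes higher and 1165 lower. The added member was SAA1, which entered this fit through Pa-Tu-8902. Its call rests on 0 counts in each untreated library of MIA PaCa-2 and 1, 7 and 4 with dox, near the limit of detection. With at least 10 counts in every library, 1 member was called at baseline, since members scarce in MIA PaCa-2 left the test. Of all 12070 genes then tested, 3064 were higher and 3180 lower. In the main fit the baseline calls of LCN2, SERPINA1, C3, CFB and SAA1 are a description, as stated above. Nothing is read from these counts of members. Among listed genes, those called numbered 31 in Pa-Tu-8902 (28 to 34 over the alternatives) against 23 in MIA PaCa-2 (18 to 23). Close to the fold limit, calls were lost for LIFR in Pa-Tu-8902 without untreated replicate 3 (0.58) and, in MIA PaCa-2, for TIMP1 (-0.56) and JAK1 (0.56) without untreated replicate 2, for JAK1 (0.56) and MYC (0.57) without dox-treated replicate 2 and for MYC (0.56) without untreated replicate 3.

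Directions turned for values close to 0 or on few counts. Without a library, SERPINA1 in Pa-Tu-8902 was 0.038 (untreated replicate 3) or 0.060 (dox-treated replicate 1), and the differences between lines were -0.67 for C3 (untreated replicate 3 of MIA PaCa-2), -0.15 for CP (untreated replicate 1 of MIA PaCa-2) and 0.030 for CEBPD (dox-treated replicate 1 of Pa-Tu-8902). CFD differed by -0.022 with effective lengths as offsets, -0.019 without dox-treated replicate 2 of Pa-Tu-8902 and -0.075 without untreated replicate 2 of MIA PaCa-2. In MIA PaCa-2 LIF was 0.0094 without untreated replicate 3, PIAS3 -0.033 without untreated replicate 2, and OSMR -0.0084 with no filter, -0.094 without untreated replicate 2, -0.0067 without dox-treated replicate 1 and -0.017 without dox-treated replicate 2. Over all libraries left out in turn, the lowest and highest values were -0.057 and 0.060 for SERPINA1, -0.67 and 1.68 for C3, -0.15 and 2.86 for CP, -0.17 and 0.030 for CEBPD, -0.075 and 0.19 for CFD, -0.082 and 0.0094 for LIF, -0.033 and 0.087 for PIAS3, and -0.094 and 0.049 for OSMR. The cause was not tested. None of these was called.

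Residuals of libraries with the same replicate number correlated by -0.0935 to 0.139 over 6 pairs, so the numbers were not taken as pairing the samples. With a replicate block the members called were 5, 1, 1 and 6 in the 4 comparisons, and the listed genes called were 30 and 22. SERPINA3 was then at 1.09 in Pa-Tu-8902 against -2.62 in MIA PaCa-2.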
